A study of Mus musculus with 2 samples.

Results

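Type I interferon-stimulated genes are the genes that cells switch on after interferon-alpha or interferon-beta binds its receptor, and 35 of them were followed in bone marrow-derived dendritic cells. The 35 genes were listed by symbol, and their probes were found through the transcript accession that the scanner files give each probe. A probe carried an accession of the gene in a RefSeq gene table for 33 of the 35. Mx1 and Mx2 were not matched through that table, and no value is given for them here. All 33 genes were well above background on both arrays by the scanner program's own call, with 48 probes in all, among 13725 genes that met the same condition.

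Each group was a single one-colour array. The array labelled EGR1-deficient carried RNA of dendritic cells from male C57BL/6J mice of genotype Egr1-deficient, and the WT array RNA of the same cell type from male C57BL/6J mice of genotype WT. In both groups femoral marrow was cultured in MEM with 10% FBS and 10 ng/ml GM-CSF, and cells were taken on day 6. The allele behind the deficiency, the animals' age and the number of mice per culture are not given in the sources used here. No stimulus such as interferon, a virus or a Toll-like receptor ligand is named for either culture, so the values are those of cells kept in GM-CSF alone, as far as the labels say.

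In background terms, the receptor for type I interferon consists of IFNAR1 and IFNAR2, which activate the kinases TYK2 and JAK1. STAT2 and IRF9 then act as parts of the complex ISGF3, which binds a short element, the interferon-stimulated response element, in the promoters of its targets. Dendritic cells and macrophages keep a low, tonic level of this program even without infection, and it includes the sensors that detect viral nucleic acid, so it is also a measure of how prepared such cells are to respond. EGR1 is an immediate early gene product that binds GC-rich DNA through zinc fingers.

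The labels are not fully borne out by the arrays, and every direction given rests on the labels as they stand. Pairs of values are given with the array labelled EGR1-deficient first and WT second. Egr1 itself read 1212 and 379.7, or 3.05-fold higher under the label of deficiency, and where its only probe lies relative to the targeted part is not known here. Xist, normally made in female cells, read 4559 and 3425. Of 4 Y-linked genes, Ddx3y, Kdm5d and Uty stayed under the background limit on both arrays and Eif2s3y was just over it, at 27.1 and 25.6, whereas both samples are labelled male. Of 14 conventional dendritic cell markers 12 were well above background on both arrays, and Clec9a and Xcr1, which mark the cross-presenting subset, were on neither. All 15 macrophage markers and all 12 granulocyte markers were also above background on both arrays, so markers of several myeloid types were measured in both cultures. Each group being 1 array, no difference could be checked against replicates and no p-values are given.

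The element that ISGF3 binds can be read in the promoters of the listed genes. Promoter windows from RefSeq (build GRCm38.p6, 250 bases before to 50 after each start site) were given for 24 of the 35 genes. The core of that element was searched as GAAA, then 2 bases of any kind, then GAAA, on either strand and with overlapping matches counted. It stood in the window of 12 of these 24 genes, whereas 3.99% of all 27025 genes with a window held it. Because the genes were listed as interferon-stimulated and promoter sequence is independent of the arrays, this comparison describes the list, not the cultures. In 9 genes a match lay before the start site, and the stretches around these matches are shown because they hold the letters that were searched for. Capitals mark the matches, overlapping ones included, and each stretch runs 5′ to 3′ on the strand of its gene.
Ifit1: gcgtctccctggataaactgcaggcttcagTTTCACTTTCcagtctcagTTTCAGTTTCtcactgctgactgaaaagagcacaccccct
Ifit3: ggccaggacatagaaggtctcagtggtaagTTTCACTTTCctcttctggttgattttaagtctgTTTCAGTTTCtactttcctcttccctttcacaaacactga
Isg15: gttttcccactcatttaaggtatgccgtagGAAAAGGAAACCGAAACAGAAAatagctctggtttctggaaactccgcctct
Oas1a: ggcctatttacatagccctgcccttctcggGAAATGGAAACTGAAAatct
Oas3: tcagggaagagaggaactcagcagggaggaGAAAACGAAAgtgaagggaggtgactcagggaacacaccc
Rsad2: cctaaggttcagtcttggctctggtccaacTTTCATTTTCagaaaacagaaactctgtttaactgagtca
Stat2: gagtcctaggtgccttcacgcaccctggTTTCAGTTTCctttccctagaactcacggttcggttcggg
Bst2: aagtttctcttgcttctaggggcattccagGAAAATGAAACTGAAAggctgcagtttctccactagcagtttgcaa
Ifi205: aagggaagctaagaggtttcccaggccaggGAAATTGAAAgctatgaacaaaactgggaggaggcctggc

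These stretches lie at chr19:34640755-34640843, plus strand, for Ifit1, at chr19:34583343-34583446, plus strand, for Ifit3, at chr4:156200845-156200926, minus strand, for Isg15, and at chr5:120907526-120907575, minus strand, for Oas1a. That of Oas3 lies at chr5:120777695-120777764, minus strand, that of Rsad2 at chr12:26456533-26456602, minus strand, and that of Stat2 at chr10:128270248-128270315, plus strand. That of Bst2 lies at chr8:71537557-71537632, minus strand, and that of Ifi205 at chr1:174031850-174031919, minus strand. Isg15 held 3 overlapping matches, with first bases 78, 72 and 66 bases before the start site. Ifit1 and Ifit3, of the same gene family, each held 2 separate matches, and Oas1a and Bst2 each held 2 that overlap. In Ifih1, Ddx58 and Eif2ak2 the only match began 33, 3 and 19 bases after the start, and Ifi205 had another there. A match is a match of letters and does not show that a factor is bound. A GC-rich EGR motif, GCGNGGGCG or CGCCCNCGC, was found in none of the 24 windows, against 6.27% of all genes. The absence says only that these letters are not in these windows.

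**Figure D1:**
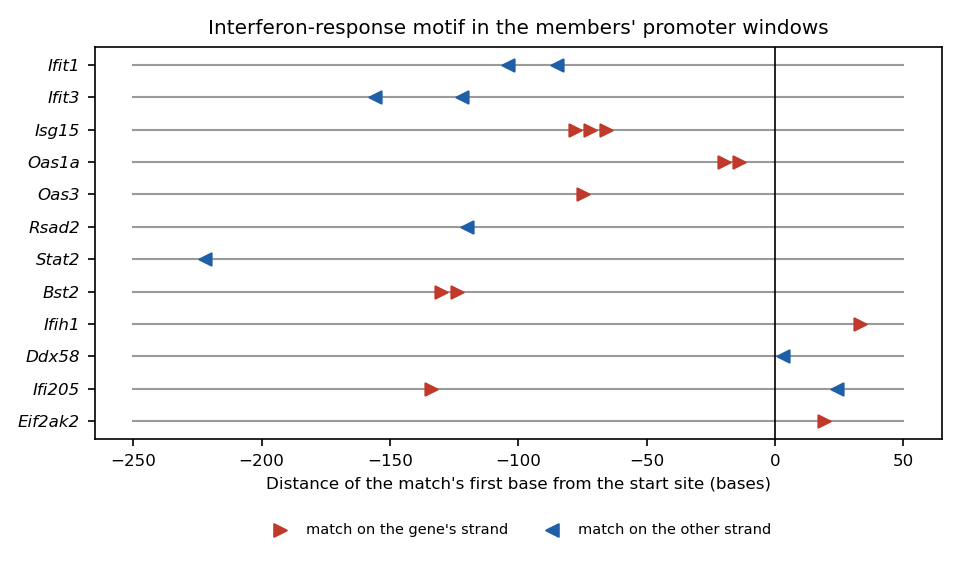
Positions of matches to the interferon-response core in the promoter windows of the 12 listed genes that hold it; the horizontal axis is the distance in bases from the start site (vertical line), and arrowheads give the strand of the match. In 9 of the 12 genes a match lies before the start site, and in Ifih1, Ddx58 and Eif2ak2 the only match lies after it.

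The interferon-stimulated genes were, nearly throughout, slightly lower under the label EGR1-deficient than under WT. Each processed intensity was divided by the 75th percentile of its array and put on the log2 scale, and a difference is the value under the label EGR1-deficient minus that under WT. Of the 33 genes 31 were below 0, where 57.4% of all genes were, and the median difference was −0.30 against −0.05 over all genes. In 21 of the 33 the signal was lower by 1.2-fold or more (−0.26 or below), against 21.3% of all genes. None was higher by 1.2-fold or more, against 14.9% of all genes. The differences were small: none of the 33 reached 1.5-fold lower (4.17% of all genes did) or 2-fold lower (1.01%), and none was higher by 1.5-fold (3.51%) or 2-fold (0.707%). They ran from −0.51 for Dtx3l to 0.21 for Isg15, and the middle of the range was narrow, with quartiles of −0.38 and −0.24 against −0.23 and 0.15 over all genes.

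The count past 1.2-fold depends on the scale. It was 13 after loess normalization and 10 after quantile normalization, where 19.2% and 19.9% of all genes passed. With the authors' series table, whose scale raises the median of all genes by 0.12, 6 of 32 genes passed, where 10.2% of all genes did. On that scale 26 of 32 listed genes were below 0, against 40.2% of all genes. Their median lay 0.25 log2 units under that of all genes. That table multiplies each array by a constant, so this distance was nearly fixed in advance and is no separate check.

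The error of a single difference is close in size to the differences themselves. The scanner program's error model gives each difference an error of 0.20 to 0.22, and 26 genes were lower by more than their own error, but only 3 genes differed by more than 2 errors, Dtx3l, Ifi205 and Rtp4. Repeated spots of the same probe varied less, with a median SD of 0.07 for a difference over 269 probes. Across probes of the same gene the median SD was 0.16 over 4594 genes, and 27 of the 33 genes were lower by more than that. The share of all genes lower by more than each of these errors was not counted. The lower quartile of all genes, −0.23, is itself beyond 0.16 and 0.22. None of these errors is the spread between cultures, which was not measured.

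**Figure D2:**
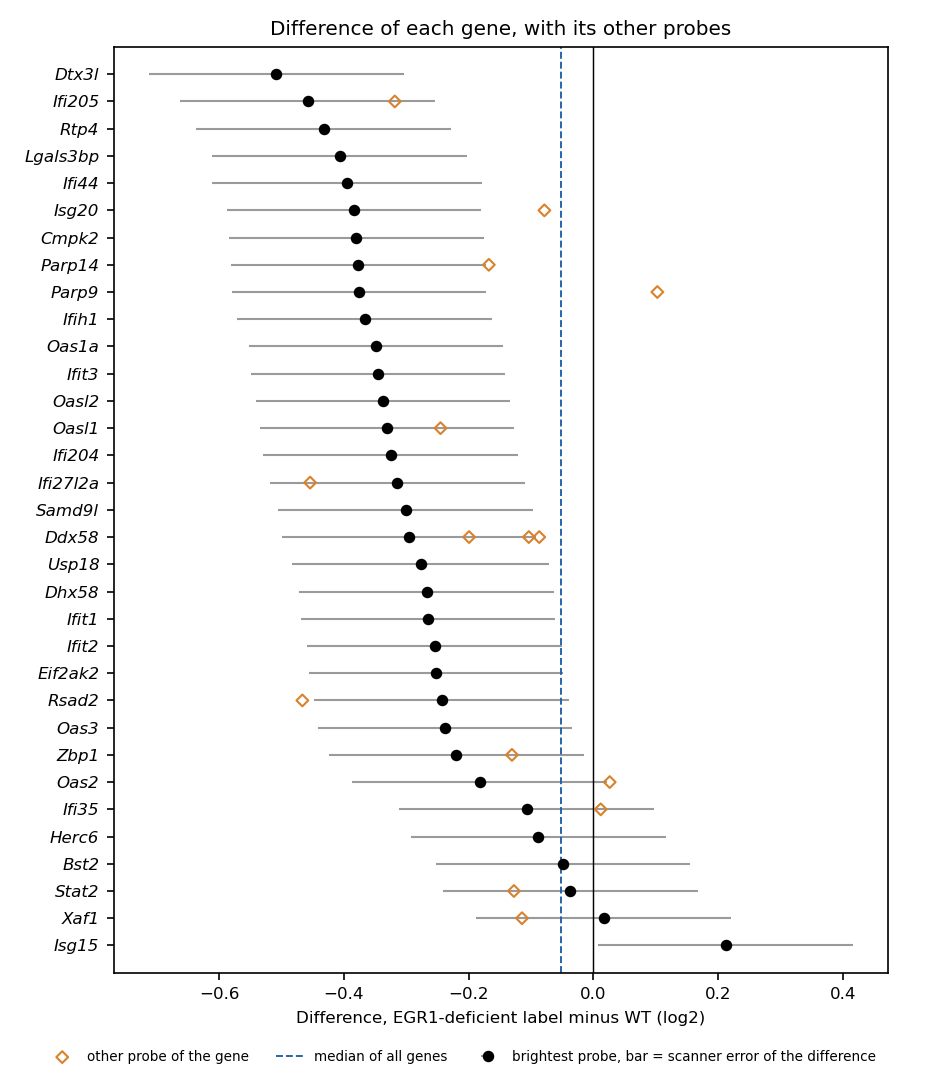
Difference between the arrays for each of the 33 genes (array labelled EGR1-deficient minus WT, log2; black points, brightest probe; bars, the scanner program's error of the difference) and for their other probes (open diamonds); the dashed line is the median of all 13725 genes, −0.05. Most black points lie between −0.4 and −0.2, Isg15 lies at 0.21, and most open diamonds lie nearer 0 than the point of their gene.

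A second probe gives a check on 13 of the genes. Of 15 such probes 12 were below 0, but 11 of the 15 lay nearer 0 than the brightest probe of their gene, and their median was −0.13. With the next brightest probe, 10 of the 13 genes were below 0, against 56.1% of all 4594 genes that have such a probe, and the medians were −0.13 and −0.04. On that probe 3 of the 13 were lower by 1.2-fold or more, a share close to the 20.7% of all such genes. Parp9 changed sign, with −0.38 in the probe of 801.8 and 993 and 0.10 in the probe of 176 and 156. Isg20 read −0.38 in its brightest probe and −0.08 in the other. Ddx58, with 4 probes, read −0.30, −0.20, −0.09 and −0.10. The opposite held for Rsad2, at −0.24 and −0.47, and for Ifi27l2a, at −0.31 and −0.45.

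The probes of these genes were bright, and bright probes of all kinds tended to read lower under the label EGR1-deficient. With genes split into 4 equal bins by signal, the brightest bin held 27 of the 33. In that bin the median difference over all 3432 genes was −0.10 and 18.2% were lower by 1.2-fold or more. Below 0 were 69.7% of them, more than the 57.4% of all genes that counts below 0 are set against here. The 27 listed genes there had a median of −0.30, and 16 of them were lower by 1.2-fold or more. The bin below it held 5 listed genes with a median of −0.28, against −0.06 for all its genes. After loess normalization, which removes a trend with signal, the median of the 33 genes was −0.25, against −0.03 over all genes. The count lower by 1.2-fold or more went from 21 to 13, where 19.2% of all genes passed. The part of the signal trend in the interferon-stimulated difference was not tested.

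**Figure D3:**
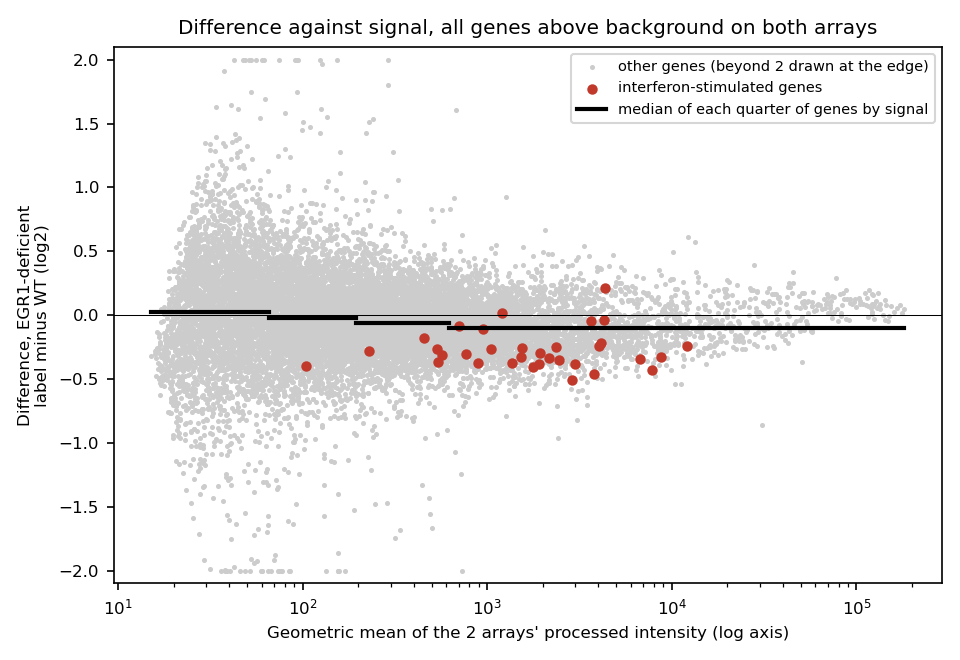
Difference (array labelled EGR1-deficient minus WT, log2) against the geometric mean of both arrays' processed intensity on a log axis, for 13725 genes; red points are the 33 interferon-stimulated genes, grey points the others, and black bars the median of each of 4 equal bins of genes by signal. The bars step down from 0.02 to −0.10 with rising signal, and most red points lie under the bar of their bin.

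The IFIT proteins bind viral RNA ends and block its translation. Ifit1 read 973 and 1117, a difference of −0.27. Ifit2 read 1442 and 1643 (−0.25). Ifit3, whose probe may also take up RNA of its near copy Ifit3b, read 6066 and 7357 (−0.34). Eif2ak2 encodes PKR, the kinase that stops translation when it meets double-stranded RNA, and read 2214 and 2520 (−0.25). All 4 genes were brighter on WT, with differences between −0.34 and −0.25.

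The oligoadenylate synthetases make the second messenger that activates RNase L. Oas1a read 2211 and 2689 (−0.35), Oas3 read 3783 and 4259 (−0.24), and Oas2 read 437 and 474 (−0.18), with another probe of Oas2 at 0.03. The related genes Oasl1, a translation-level brake on IRF7, and Oasl2, an antiviral member of the family, read 1387 and 1666 (−0.33) and 1967 and 2373 (−0.34). All 5 were below 0 in their brightest probe, with a median of −0.33, and RNA of the neighbouring near copies of Oas1a may add to its signal.

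Antiviral factors that act on nucleotides and nucleic acids were all below 0. Rsad2 encodes viperin, which makes a chain-terminating nucleotide, and read 11298 and 12770 (−0.24). Its neighbour Cmpk2, a mitochondrial nucleotide kinase, read 2665 and 3312 (−0.38). Isg20, an RNA exonuclease, read 1703 and 2122 (−0.38), and Samd9l, which restricts poxviruses, read 708 and 832 (−0.30). The median of the 4 was −0.34, and 3 of them were lower by 1.2-fold or more.

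The sensors of viral nucleic acid were all below 0. Ddx58 encodes RIG-I and read 1783 and 2090 (−0.30), Ifih1 encodes MDA5 and read 487 and 600 (−0.37), and Dhx58 encodes their regulator LGP2 and read 498 and 572 (−0.27). Zbp1, the sensor of Z-form nucleic acid that can trigger necroptosis, read 3902 and 4338 (−0.22). Ifi204 and Ifi205 belong to the HIN-200 family of DNA-binding proteins and read 8011 and 9584 (−0.33) and 3309 and 4342 (−0.46). The median of the 6 was −0.31, and 5 were lower by 1.2-fold or more, Zbp1 being the exception. The HIN-200 genes are close copies of each other, so these probes may share RNA.

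The genes of the ISG15 system went different ways. Isg15, the ubiquitin-like protein itself, read 4793 and 3951, a difference of 0.21, and lay between 0.20 and 0.37 under all 6 scalings computed. It rests on a single probe, and the difference is about the size of its scanner error of 0.20. In its promoter stand the 3 overlapping matches already printed. Usp18, the protease that removes ISG15 and also restrains the receptor, read 211 and 245 (−0.28). Herc6, the ligase that attaches ISG15 in the mouse, read 702 and 712 (−0.09) and was above 0, at 0.03, with the authors' series table. The median of these 3 genes was −0.09, and 0.03 with that table. Of the 33 genes, Isg15 alone was above 0 under all 6 scalings.

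The lowest value of the list belonged to a head-to-head gene pair. Dtx3l, a ubiquitin ligase, read 2467 and 3351 (−0.51, or 1.42-fold lower), and its partner Parp9, with which it forms a complex that promotes interferon signalling, read 802 and 993 (−0.38, another probe 0.10). Parp14, an ADP-ribosyltransferase gene next to them, read 1228 and 1523 (−0.38, another probe −0.17). These 3 genes lie next to each other in the gene table, with no other protein-coding gene between them. All 3 were lower by 1.2-fold or more in their brightest probe, and Dtx3l has no other probe to set beside it.

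The remaining genes ranged more widely. Rtp4, which encodes a chaperone of receptors that also restricts viruses, read 6896 and 8887 (−0.43), and Lgals3bp, a secreted glycoprotein, read 1564 and 1981 (−0.41). Bst2, which encodes the virus-tethering protein tetherin, read 3682 and 3638 (−0.05) and was above 0 under 4 of 6 scalings. Ifi44 read 93.1 and 117 (−0.40) and Ifi27l2a 525 and 623 (−0.31), whereas the apoptosis factor gene Xaf1 read 1240 and 1170 (0.02, another probe −0.11).

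The signalling members Stat2 and Ifi35 lay near the median of all genes, and their joint median of −0.07 was above 0 after loess (0.01) and quantile normalization (0.03) and with the authors' series table (0.04). Stat2, a subunit of ISGF3, read 4318 and 4230 (−0.04, another probe −0.13), and its sign changed with the scaling, being above 0 in 3 of 6. Ifi35, which encodes an interferon-induced adaptor, read 938 and 965 (−0.11, another probe 0.01). Over all listed genes, 27 were below 0 under every scaling that gave a value and 1 was above 0 under every scaling. The signs of Stat2, Bst2, Xaf1, Ifi35 and Herc6 differed. How many of all genes kept their sign in this way was not counted. Some of the scalings shift all genes alike, so their agreement was partly fixed in advance. Ifi35 and Herc6 were above 0 only with the authors' series table, which moves all genes up alike.

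**Figure D4:**
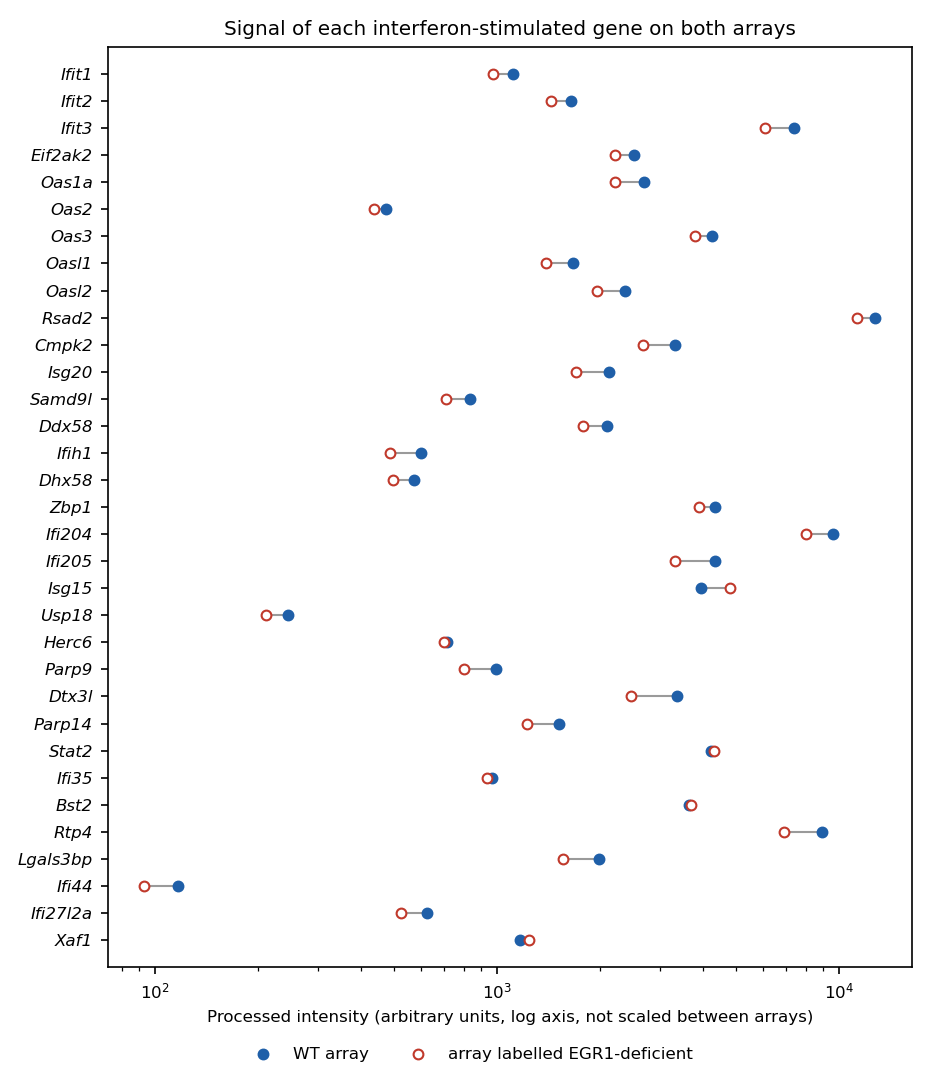
Processed intensity of the 33 genes (brightest probe, arbitrary units, log axis, not scaled between arrays) on the WT array (filled) and on the array labelled EGR1-deficient (open), in the order of their roles. Before any scaling 29 of the 33 were brighter on the WT array, and Isg15, Stat2, Bst2 and Xaf1 were brighter on the other. The share of all genes that were brighter on the WT array before scaling was not counted.

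The listed genes were below 0 with and without the interferon-response core. The 12 genes with a match had a median of −0.26, with 6 lower by 1.2-fold or more, and the 12 genes whose window held none had −0.33, with 8. The 9 measured genes without a window in the table had a median of −0.31. Among genes outside the list, 418 with a match had a median of −0.09, with 23.9% lower by 1.2-fold or more, and 10478 without a match had −0.05, with 21.2%.

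The same pathway was then followed from ligand to receptor to targets, through lists of its textbook members. Most type I interferon genes were near or under background. Of 15 ligand genes with a probe, 8 were well above background on neither array, Ifnb1 and 2 others on WT only and 2 on the array labelled EGR1-deficient only. Ifnb1, the interferon that starts the response in myeloid cells, read 20.8 on WT, and the other array was at least 1.63-fold lower. An at-least fold sets the bright reading against the lowest signal well above background on the other array, or the probe's own signal there if higher. Ifna1, at 91.5 and 56.9 (0.62), and Ifna9, at 154 and 116 (0.34), were brighter under the label EGR1-deficient, and because interferon-alpha genes are near copies, their probes may share RNA. Of the other interferons, the type III gene Ifnl3 read 144 and 127 (0.11), and Ifng was under the background limit on both arrays.

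Of the 6 receptor genes 4 were below 0 and 2 above. Ifnar1 read 0.16, with its other probes at 0.03 and −0.10, and Ifnar2 read −0.19, with another probe at −0.09. Ifngr1 and Ifngr2, which receive interferon-gamma, read −0.33 and −0.07. The receptor genes of type III interferon, Ifnlr1 and Il10rb, read 0.22 and −0.21. Their median was −0.13, −0.04 after quantile normalization and −0.01 with the authors' series table. The 1 of 6 that was lower by 1.2-fold or more is a share near the 21.3% of all genes.

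Genes that carry the signal from the receptor had a median of −0.20, with 7 of 9 below 0, against 57.4% of all genes. The 2 of 9 lower by 1.2-fold or more are a share near that of all genes, 21.3%, and the median was −0.08 with the authors' series table. The kinase gene Jak1 read 622 and 873, the lowest of the list at −0.56, from a single probe. Jak2 read −0.26 with another at 0.17, and Irf9, the DNA-binding subunit of ISGF3, read −0.23 with another at −0.28. Of 19 genes of sensing upstream of interferon 16 were below 0, against 57.4% of all genes. By 1.2-fold or more 6 were lower, against 21.3%. The median of the 19 was −0.19, and −0.10 after quantile and after loess normalization. The RNA receptor gene Tlr7 read −0.93 with its other probes at −0.37 and 0.13, the kinase gene Tbk1 read −0.78, Tlr3 read −0.33 and Irf3 read −0.32 with another probe at 0.02. Of 15 negative regulators 13 were below 0, against 57.4% of all genes, and 3 were lower by 1.2-fold or more, against 21.3%. Their median was −0.12. That median was −0.06 after loess and −0.03 after quantile normalization, the latter equal to the −0.03 of all genes at this precision. Among them Socs3 read −0.84 and Socs1 −0.38, Pias1 read 0.40 with another probe at −0.17, and Adar, which edits self RNA, read −0.27 with another at 0.16.

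Of 61 measured interferon-stimulated genes outside the 35, 52 were below 0, against 57.4% of all genes. By 1.2-fold or more 25 were lower and 2 higher, against 21.3% and 14.9% of all genes. Their median was −0.24, −0.16 after loess, −0.14 after quantile normalization and −0.13 over 58 genes with the authors' series table. The GTPase gene Gbp3 read −0.65, the chemokine gene Cxcl9 −0.62 and the apolipoprotein gene Apol9b −0.60, each from a single probe. The HIN-200 gene Ifi213 read 0.65. Cxcl9 and Ifi213 rest on dim readings, of 36.3 and 53.3 for Cxcl9 and of 31.4 and 19.1 for Ifi213. The 18 reference genes, commonly taken as stable, had a median of −0.15. Below 0 were 15 of them, against 57.4% of all genes, and 3 were lower by 1.2-fold or more, against 21.3%. The largest differences among the 18 were −0.42 for Gusb, −0.29 for Tfrc, −0.28 for B2m, which interferon itself induces, and −0.24 for Hprt. The median of the reference genes was −0.08 after loess and −0.04 after quantile normalization, where the 33 listed genes had −0.25 and −0.22.

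**Figure D5:**
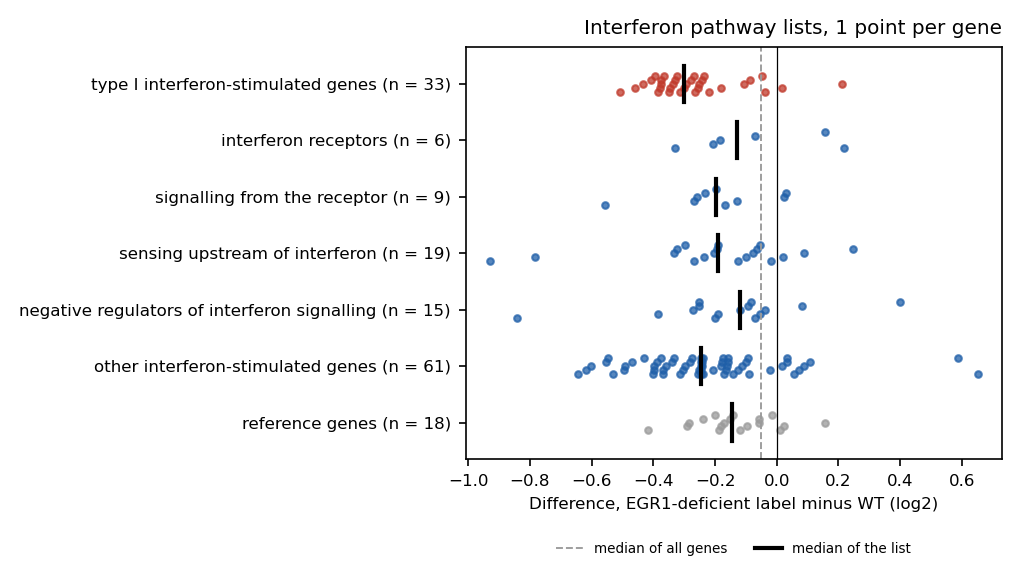
Differences (array labelled EGR1-deficient minus WT, log2) of the measured genes of each pathway list, 1 point per gene, vertical spread for legibility only; black bars are list medians and the dashed line is the median of all genes, −0.05. The 33 interferon-stimulated genes (median −0.30) and the 61 others (−0.24) have the lowest medians, and the reference genes have −0.15.

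Marker genes of other cell types differed between the arrays as well. Of 15 macrophage markers 14 were below 0, against 57.4% of all genes, with a median of −0.37. Their summed signals, not scaled between arrays, were 107859 and 145942, mostly from Apoe and Chil3. Csf1r, which encodes the receptor of the macrophage growth factor, read 8289 and 10347 (−0.39), with another probe at −0.05. Retnla, a marker of alternative activation, read 235 and 2269 (−3.34), and both genes were chosen after their values were seen. In a bulk culture fewer cells of a type cannot be told apart from less RNA per cell. Plasmacytoid dendritic cells are the main producers of type I interferon. Of their 10 markers measured on both arrays 7 were below 0, against 57.4% of all genes, with a median of −0.07. Siglech, a defining marker of these cells, read 4748 and 3516 (0.37), the highest difference of the 10. Lair1 and Klk1 read −0.62 and −0.56, the lowest. The summed signal of the list, 7547 and 6813, was mostly that of Siglech. Monocyte markers had a median of −0.06 and conventional dendritic cell markers of 0.04, with summed signals of 35040 and 39939 and of 46290 and 46073. Granulocyte markers had a median of −0.05, with summed signals of 69541 and 62794. B cell markers, 6 of 8 measured on both arrays, summed to 807 and 646 with a median of −0.65. Ms4a1 and Pax5 made up most of these sums and went the other way, at 0.45 and 0.47. The 4 markers below 0, Cd79a, Cd79b, Ebf1 and Vpreb1, rest on dim readings of 15.7 to 42.4. The lowest signals well above background were 13.3 and 16.3. T and NK cell markers, 5 of 11, summed to 1436 and 905, mostly from Cd4, with a median of 0.18. Igll1, Cd8a, Ncr1 and Gzmb were under the background limit on both arrays. The part of cell composition in the interferon-stimulated difference was not tested.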

How the data were processed

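RNA of 2 cultures was hybridised to 1 one-colour Agilent array each; the file headers give both the same slide and scan number. The authors deposited linear intensities per spot, written by Agilent Feature Extraction 12.1.0.3 (file headers; the submitters' processing notes name 11.5.1.1). The array grid names build mm9, per the file headers. The authors' deposited series table of intensities equals the processed intensity times 6.18 (array labelled EGR1-deficient) or 5.97 (WT), with no centring and with column medians of 1205 and 1114. It served as an alternative.

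Processed intensity was divided by its 75th percentile over the 59305 non-control spots of an array and put on the log2 scale. The scanner program called 59.8% (label EGR1-deficient) and 55.2% (WT) of these spots well above background, no spot was saturated, and 77 and 79 outlier spots were left out. Accessions were named through RefSeq (GRCm38.p6), which named 34565 probes as 23786 genes. A gene takes its probe of highest mean signal. Since each group holds 1 array, no test was made, and precision is limited by the number of arrays. The counting step was tested on simulated data. The members and lists were chosen with earlier results of these data known. Named genes were all members, Egr1 and, of each pathway list, the 4 largest differences or all genes of a list of 6 or fewer. The X- and Y-linked genes, the cell type markers, Ifnb1 and the genes of the closing observations were named outside this rule, with their values known. A gene that the rule selects in the list of signalling from the receptor is not reported here. Normexp (limma 3.58.1, offset 50) used the median signal, since these files give no mean signal. Loess used statsmodels 0.14.6.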

Additional observations from a re-analysis of the deposited data

How the results depend on the processing

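The median of the 33 genes stayed below 0 and below the median of all genes under every alternative tried. It was −0.30 on the percentile scale, and moved to −0.22 after quantile normalization, −0.18 with the authors' series table and −0.13 over the 13 genes that have a next brightest probe. Loess combined with averaging all probes per gene, chosen after seeing the data, gave −0.22. Another scale and the series table shift all genes alike, so with them the distance to the median of all genes could hardly change. The count of genes lower by 1.2-fold or more, 21 of 33, moved to 10 after quantile normalization, 13 after loess, 6 of 32 with the series table, 3 of 13 with the next brightest probe and 11 with loess and the mean of probes. The last 2 stand against 20.7% and 18.1% of all genes. Normexp left 17, another scale 20 and the mean of probes 19, against 12.6%, 21% and 19.4% of all genes. Either filter on dim probes left 21, but all 33 genes passed both filters, so the count could not change. Of all genes 36.8% were lower by 1.2-fold or more without a filter and 20.1% with the stricter one. Parp9 changed sign to 0.10 with its next brightest probe. The share of promoters with the interferon-response core, 50%, was 33.3% in the 200 bases before the start site and 95.8% with 1 mismatch allowed, where 2.65% and 38.9% of all genes held it. The cause of these changes was not tested. No paired analysis was possible because each group has 1 array. Leaving out a replicate was not possible for the same reason. The brightest probes of the 33 genes read 93.1 or more, over lowest signals well above background of 13.3 and 16.3, but other probes were dimmer, such as that of Ifi27l2a at 34.9 and 45.7.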

Other observations

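Within the list of other interferon-stimulated genes, 3 PHD-finger genes of the Phf11 family, chosen after their values were seen, had differences near the lowest of the 33 measured genes. Phf11a read 1177 under the label EGR1-deficient and 1651 under WT (−0.55), Phf11d read 1533 and 2117 (−0.53) and Phf11b read 2900 and 3831 (−0.47), each from a single probe. These genes are near copies, so their probes may share RNA. Chosen in the same way, the interferon-induced chemokine genes Ccl5 and Cxcl10 read −0.40 and −0.39, and Psmb8, an immunoproteasome subunit gene, read −0.49.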
